A study of Mus musculus with 6 samples.

Results

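Histone genes were taken as the rows of the expression table whose symbol begins with Hist1h, Hist2h, Hist3h, Hist4h, H2af, H3f or H1f, which gave 63 of the 16862 rows. Of these, 52 carry a cluster name (Hist1h to Hist4h) and are called replication-dependent here, and 11 are variant histone genes (H2af, H3f and H1f). The study sequenced RNA from whole male mouse gonads at E13.5, a stage of embryonic development counted in days, and compared wild-type gonads with gonads lacking both prostaglandin D synthases, the lipocalin type (L-Pgds, gene Ptgds) and the haematopoietic type (H-Pgds, gene Hpgds). There were 3 wild-type libraries (WT1, WT3 and WT4) and 3 libraries labelled L/H-Pgds knockout (KO5, KO7 and KO8), all from the C57BL/6 strain. The labels speak of 6 different littermates, and total RNA was extracted with Trizol and made into libraries with an Illumina TruSeq RNA kit. The knockout is not restricted to a cell type in the labels, no agent was given, and the number of gonads per library is not given in the sources used here.

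Histones are the proteins that DNA winds around in chromatin: H2A, H2B, H3 and H4 form the core particle and H1 binds the linker between particles. Replication-dependent histone genes lie in clusters, mostly lack introns and are transcribed in S phase, and their mRNAs typically end in a conserved stem-loop, bound by the stem-loop binding protein Slbp, in place of a poly(A) tail. Variant histone genes mostly lie alone, are typically expressed throughout the cell cycle and mostly give polyadenylated mRNAs. In the fetal testis, germ cells enter mitotic arrest while Sertoli cells go on dividing, so the tissue mixes cells that need new histones with cells that do not. In bulk RNA of this kind, fewer cells of a type and less RNA per cell cannot be told apart.

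The stem-loops are shown because they mark the difference between the gene classes. Annotated transcripts (GENCODE vM21, GRCm38 build) were searched along their whole length for the histone 3′ stem-loop motif. It was found in 37 of the 52 replication-dependent genes, in 1 of the 11 variant genes, and, at any position, in 0.311% of 21877 protein-coding genes. In 9 of the 15 replication-dependent genes without a match, the annotated transcript ends at the stop codon, so these letters lie outside the window searched. The 16-nucleotide loop and stem had 9 different sequences among the members, began between 21 and 54 nucleotides after the stop codon, and are in capitals below, with 5 nucleotides on each side, 5′ to 3′ as DNA.
Hist1h4a: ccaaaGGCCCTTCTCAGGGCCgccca
Hist1h1e: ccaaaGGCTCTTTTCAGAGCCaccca
Hist2h2ac: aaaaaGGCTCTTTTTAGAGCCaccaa
Hist1h4i: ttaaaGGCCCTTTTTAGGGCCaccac
Hist3h2ba: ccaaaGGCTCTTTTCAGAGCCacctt
H2afx: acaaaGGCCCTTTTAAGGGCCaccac
The site of Hist1h4a lies at chr13:23760795-23760820 on the minus strand, that of Hist1h1e at chr13:23621777-23621802 (minus), that of Hist2h2ac at chr3:96220413-96220438 (minus), that of Hist1h4i at chr13:22040961-22040986 (minus), that of Hist3h2ba at chr11:58949344-58949369 (plus) and that of H2afx at chr9:44335235-44335260 (plus), all in GRCm38 and in the 3′ UTR. The form of Hist1h1e, with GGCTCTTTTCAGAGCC, was the commonest and occurred in 19 members. H2afx, which encodes the H2A.X variant that is phosphorylated at DNA breaks, is the variant gene that carries the element.

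Promoters were matched for 57 of the 63 members in RefSeq (GRCm38.p6), each from 250 bases before to 50 bases after the annotated start. The motifs searched on both strands were CCAAT, the core of sites bound by the factor NF-Y, and TATAAA, the core of the TATA box. CCAAT occurred in 85.1% of 47 replication-dependent promoters, in 7 of 10 variant promoters and in 37.9% of 27025 promoters in all. TATAAA occurred in 53.2% of the replication-dependent promoters, in 1 variant promoter (H3f3b) and in 14.2% of all. Both motifs occurred in 44.7% of the replication-dependent promoters, in that 1 variant promoter and in 5.55% of all. Below are the promoters of 2 replication-dependent genes whose values stood apart in library KO7 and of H2afv, a variant gene that fell, chosen after their values were seen, with both motifs (either strand) in capitals.
Hist2h2bb: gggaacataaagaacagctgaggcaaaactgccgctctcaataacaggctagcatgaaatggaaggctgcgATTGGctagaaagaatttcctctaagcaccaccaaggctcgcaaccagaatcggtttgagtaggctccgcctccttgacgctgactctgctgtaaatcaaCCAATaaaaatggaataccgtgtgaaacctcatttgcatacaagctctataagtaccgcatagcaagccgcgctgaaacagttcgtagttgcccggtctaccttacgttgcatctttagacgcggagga
Hist1h1b: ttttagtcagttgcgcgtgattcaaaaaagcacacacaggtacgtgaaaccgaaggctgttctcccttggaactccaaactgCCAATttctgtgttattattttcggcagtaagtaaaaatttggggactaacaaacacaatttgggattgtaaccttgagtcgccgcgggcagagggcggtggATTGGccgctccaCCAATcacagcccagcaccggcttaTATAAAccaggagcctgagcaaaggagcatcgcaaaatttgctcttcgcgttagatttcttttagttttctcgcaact
H2afv: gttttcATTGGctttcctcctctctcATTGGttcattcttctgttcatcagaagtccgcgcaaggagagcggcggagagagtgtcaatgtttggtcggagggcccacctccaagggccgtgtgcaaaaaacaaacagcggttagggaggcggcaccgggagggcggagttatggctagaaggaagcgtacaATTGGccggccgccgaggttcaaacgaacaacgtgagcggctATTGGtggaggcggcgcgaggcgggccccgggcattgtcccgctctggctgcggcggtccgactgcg
Hist2h2bb is read from chr3:96269450-96269749 on the plus strand, Hist1h1b from chr13:21780576-21780875 on the minus strand and H2afv from chr11:6444394-6444693 on the minus strand. A match is a description of the letters and not a measured binding site.

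Values in the table are upper-quartile normalised pseudo-counts, called values here, whose read depth is unknown. They sum to between 21657342 and 23734462 per library. Ptgds checked the labels: its values were 6560, 8137 and 8712 in the wild-type libraries and 15.2, 4.0 and 2.94 in the libraries labelled KO. Hpgds went the other way, from 45, 47.5 and 55.0 in wild type to 87.8, 87.3 and 104 in the libraries labelled KO, and no source used here says which exons the knockout removed, so its value does not check the label. The tissue check matched a male gonad: the Sertoli cell list (Amh, Sox9, Gata4, Dhh and Cldn11) summed to between 51796 and 90674, and of 4 ovary genes Foxl2 was between 12.3 and 29.9 while Wnt4, which gonads of both sexes can express, was between 2064 and 4016. KO libraries are named by their label throughout. Across all genes, 34.3% of 15116 tested were called at an adjusted p below 0.05 by limma (a linear model that shares the spread between genes), 17.3% higher and 17.0% lower in the libraries labelled KO; the same test without KO7 called 28.1%. Scaling to equal totals moved the share of calls that were higher from 50.4% to 67.5%, and the median change of all genes from -0.03 to 0.07 on the log2 scale. WT1 also stood apart, with 501 genes at least 2-fold above every other library, none of them a replication-dependent histone gene.

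Before any comparison of groups, library KO7 has to be set apart for the replication-dependent genes. KO7 was the highest of the 6 libraries for 34 of the 52 genes, where WT1 was highest for 6, WT3 for 2, WT4 for 7, KO5 for 0 and KO8 for 3. Among all listed genes KO7 was the highest library for 22.8%, WT1 for 23.3%, WT3 for 9.78%, WT4 for 19.8%, KO5 for 10.1% and KO8 for 14.2%. Among listed genes with a mean value under 50, KO7 was highest for 18.0%. Relative to the mean of the 6 libraries, the median replication-dependent gene deviated by 1.05 in KO7 on the log2(value + 1) scale, against -0.25, -0.02 and 0.10 in the wild-type libraries, -0.28 in KO5 and -0.49 in KO8. The variant genes did not share this: their median deviation in KO7 was -0.26, and KO7 was highest for 1 of 11. Apart from H1foo (mean 9.07), however, the variant genes had mean values of 727 or more. The 7 replication-dependent genes with a mean of 50 or more had a median deviation of -0.15 in KO7, and KO7 was highest for 0 of them. Gene class and level therefore cannot be told apart in this contrast.

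**Figure D1:**
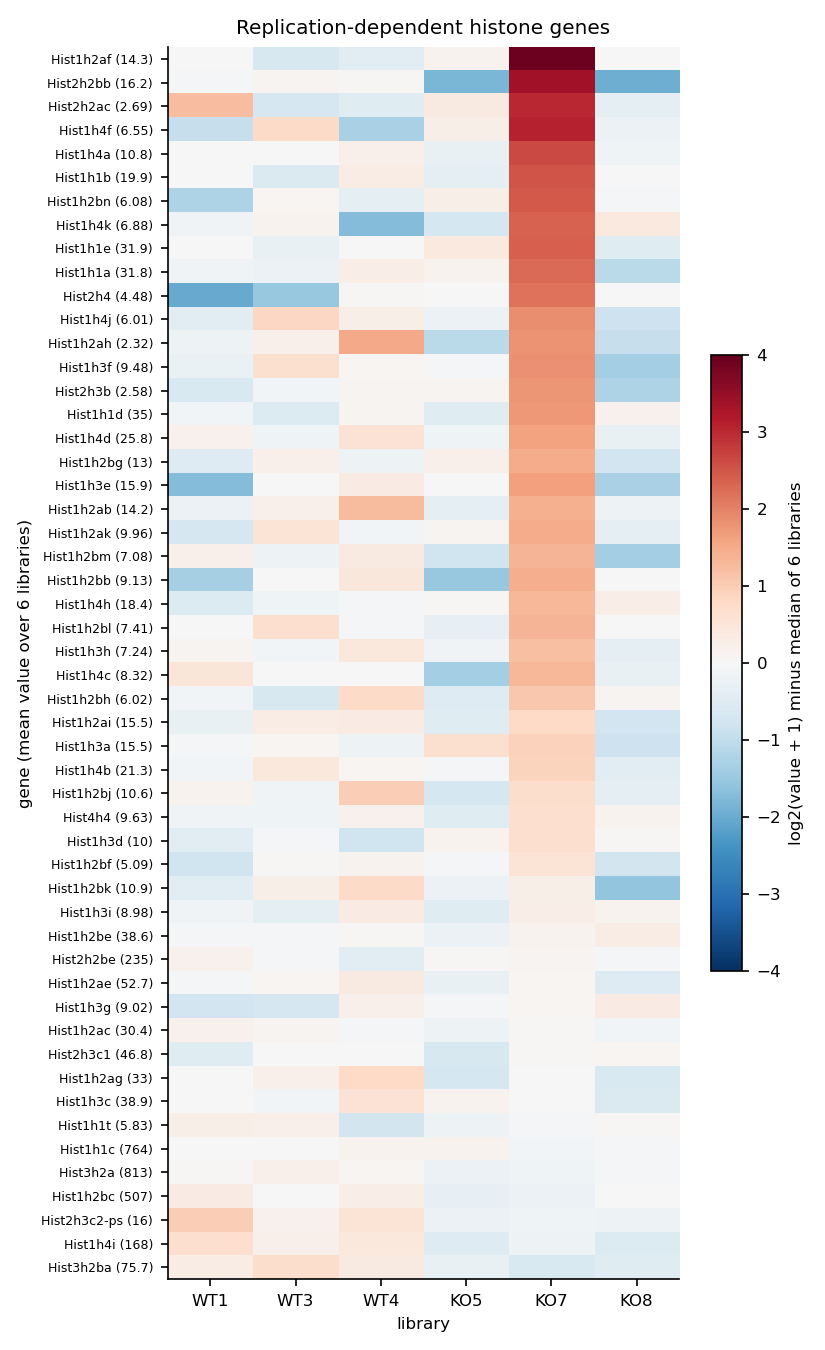
Values of the 52 replication-dependent histone genes (rows, with the mean value over 6 libraries in brackets) in each library (columns), coloured by log2(value + 1) minus the median of the 6 libraries, ordered by the size of KO7 against the median of the other 5. The KO7 column is red for most rows, and KO7 is the highest library for 34 of 52 genes.

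The high values in KO7 lay among the genes with low values. Of the 45 replication-dependent genes with a mean under 50, 43 were above the median of the other 5 libraries in KO7 and 34 were highest there. Of all 3999 listed genes with a mean under 50, 2295 were above that median in KO7 and 720 were highest there. The summed value of these 45 genes was 495, 548 and 664 in wild type, 470 in KO5, 1421 in KO7 and 454 in KO8. The 7 genes with a mean of 50 or more (Hist1h1c, Hist3h2a, Hist1h2bc, Hist2h2be, Hist1h4i, Hist3h2ba and Hist1h2ae) were highest in KO7 in 0 cases, and their sum was 2884, 2784 and 2855 in wild type and 2379, 2347 and 2436 in KO5, KO7 and KO8. The summed value of the 7 abundant genes was thus lower in all 3 libraries labelled KO, and that of the 45 scarce ones was higher in KO7 than in any other library. Single genes did not all follow their sum. In 4 of the 7, all libraries labelled KO lay under all wild-type libraries, as in 25.6% of all genes tested. In the shortest of 5 transcript length classes (up to 1793 nucleotides) that share was 57.3%. The sum of that class was 5656642 to 6692200 in wild type and 4494658 to 4608567 in the libraries labelled KO. Hist1h1c, Hist1h2bc, Hist1h4i, Hist3h2ba and Hist1h2ae belong to it. With the length and GC trend removed, 0 of the 7 were called lower and 1 higher. Hist2h2be had means of 224 in wild type and 245 in the libraries labelled KO.

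**Figure D2:**
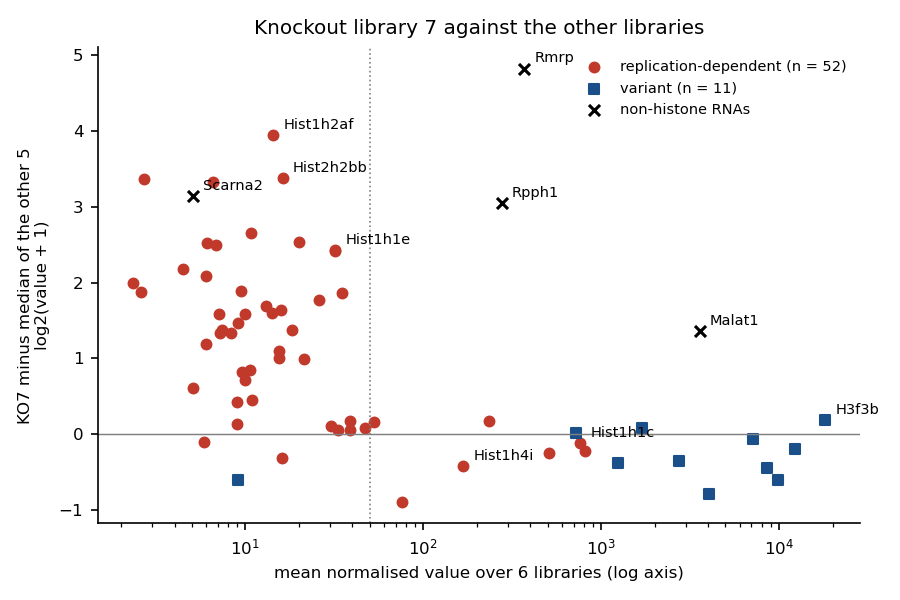
Each histone gene's mean value over the 6 libraries (log axis) against KO7 minus the median of the other 5 libraries on the log2(value + 1) scale, for 52 replication-dependent genes (circles), 11 variant genes (squares) and 4 non-histone RNAs (crosses), with a dotted line at a mean of 50. Replication-dependent genes left of the line reach 3.94 (Hist1h2af), while those right of it and the variants lie at or below 0.19 (H3f3b).

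Single genes show how far KO7 lay from the rest; they were chosen after their values were seen. Hist1h2af, which encodes a core H2A, had values of 3.65, 1.98 and 2.39 in wild type and 4.18, 70.1 and 3.68 in KO5, KO7 and KO8. It lies on chromosome 13 from 23625780 to 23626172 (mm9, as deposited). In Hist2h2bb, a core H2B gene whose promoter is printed above, the values were 6.29, 7.09 and 6.64 in wild type and 1.11, 74.9 and 0.921 in KO5, KO7 and KO8. KO7 exceeded the next highest library by 16.8 times in Hist1h2af and by 10.6 times in Hist2h2bb, and the other libraries labelled KO were not high in either.

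KO7 was also the highest library for 4 of the 6 replication-dependent linker genes, whose proteins compact the chromatin fibre. Hist1h1b read 10.9, 7.01 and 13.8 in wild type and 8.26, 68.0 and 11.2 in KO5, KO7 and KO8. Hist1h1e read 18.1, 14.8 and 18.9 in wild type and 24.6, 102 and 12.9 in the libraries labelled KO. Hist1h1a read 18.0, 17.0 and 24.4, then 22.5, 99.9 and 9.10, and Hist1h1d read 24.4, 17.7 and 28.6, then 18.5, 91.0 and 30.1. In each of these 4 linker genes KO7 was between 3.03 and 4.94 times the next highest library. Among the H4 genes KO7 was highest for 10 of 11; Hist1h4a read 5.40, 5.33 and 6.31 in wild type and 4.15, 38.8 and 4.63 in KO5, KO7 and KO8. KO7 was highest for 4 of 6 H1 genes, 6 of 10 H2A genes, 8 of 14 H2B genes and 6 of 11 H3 genes.

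Only 58 of the 16862 listed genes (0.344%) had KO7 at least 2-fold above every other library on the log2(value + 1) scale, and 19 of them were replication-dependent histone genes and 0 were variants; among listed genes with a mean under 50 the share was 1.35%. Of the 10 genes with the largest such gap, 7 were replication-dependent histone genes. The corresponding lists for WT1, WT3, WT4, KO5 and KO8 held 501, 20, 22, 10 and 26 genes, and none held a replication-dependent histone gene. Of the 39 genes on the KO7 list that are not histone genes, 9 are small noncoding RNAs by their symbol (Rmrp, Rpph1, and names beginning Scarna, Snora, Snord, Rnu, Rn7s or Vaultrc), a class of RNAs that mostly lack a poly(A) tail and that was chosen after the list was seen. Among all 70 such RNAs in the table KO7 was the highest library for 25 (35.7%). The other 30 include Malat1 and genes known from kidney tubules, such as Cubn, Slc3a1 and Slc23a1. Rmrp, the RNA of the ribonuclease MRP complex, read 98.3, 65.4 and 131 in wild type and 14.5, 1876 and 34.2 in KO5, KO7 and KO8. Rpph1, the RNA of ribonuclease P, read 198, 126 and 175 in wild type and 33.9, 1058 and 66.0 in the libraries labelled KO. The small Cajal body RNA Scarna2 read 23.6 in KO7 and between 0.271 and 2.26 elsewhere. Malat1, a nuclear long RNA whose 3′ end is a triple helix, read 2211, 3074 and 1679 in wild type and 3428, 7900 and 3190 in KO5, KO7 and KO8. All 3 libraries labelled KO thus lay above wild type in Malat1, and KO7 lay furthest. Its change was 0.97 (limma, adjusted p = 0.0361), and 0.55 without KO7 (adjusted p = 0.0753). Neat1, another nuclear long RNA, read 216, 234 and 229 in wild type and 488, 469 and 433 in KO5, KO7 and KO8, so all 3 libraries labelled KO were high and KO7 did not stand apart from them. The part of these RNAs in the histone result was not tested.

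Lists of genes for histone supply and DNA replication had median deviations near 0 in KO7, with members on both sides. The median deviation in KO7 was -0.09 for 29 S phase genes, -0.01 for 25 histone chaperone genes and 0.05 for 14 histone mRNA processing genes. Cell type markers were compared in the same way: germ cell markers (Ddx4, Pou5f1, Dazl, Mael and Dppa3) summed to 33646 in KO7 against 17377 to 26411 in wild type and 18702 to 20785 in KO5 and KO8, with 3 of 5 highest in KO7 and none at 0. Sertoli cell markers summed to 51796 in KO7 against 66351 to 90674 in wild type, with 0 of 5 highest in KO7. Most of that sum is Amh, and without Amh the other 4 summed to 15153 in KO7, inside the wild-type range of 13214 to 18181. Mesonephros markers summed to 394 in KO7, inside the wild-type range of 236 to 421, with 1 of 4 highest in KO7. The part of these cells in the histone values was not tested.

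**Figure D3:**
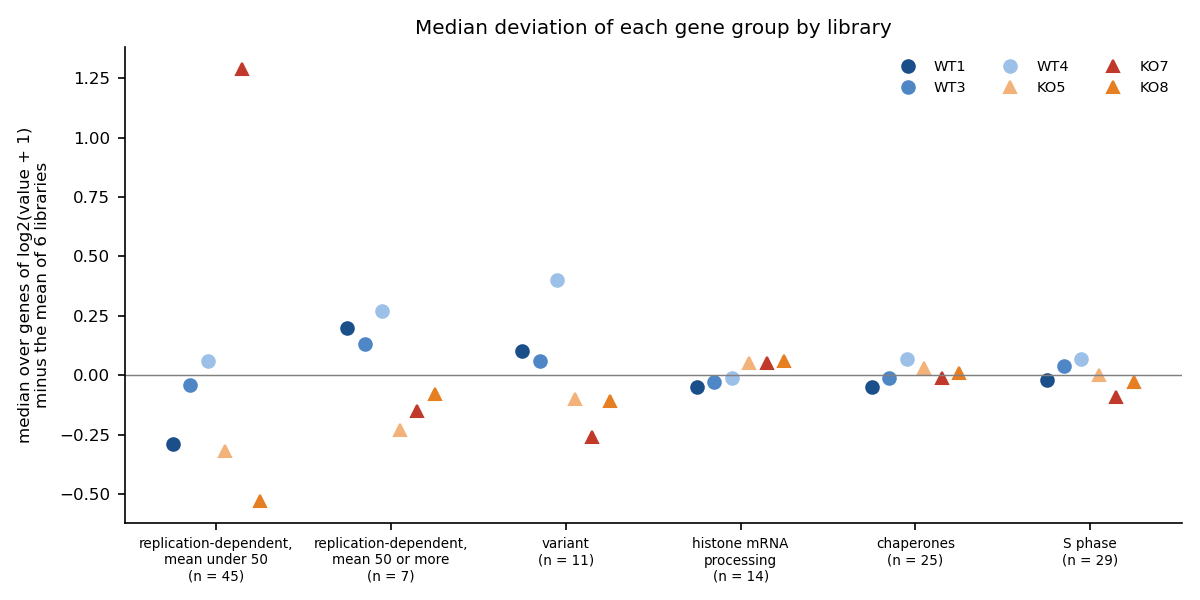
Median over genes of log2(value + 1) minus the mean of 6 libraries, for each library (circles wild type, triangles labelled KO) and gene group, with the number of genes listed under each. KO7 reaches 1.29 in the replication-dependent genes with a mean under 50 and is between -0.26 and 0.05 in the other 5 groups.

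Deposited span, the stem-loop and shared sequence were compared with the KO7 gap. Replication-dependent genes whose deposited span is at most 700 bp (37 genes) had a median gap of 1.47 between KO7 and the median of the other 5 libraries, and 29 were highest in KO7. Those with a longer span (15 genes) had a median gap of 0.16, and 5 were highest in KO7. These classes also differed in level, with a median of the mean values of 10 for the shorter spans and 35.0 for the longer, so span and level cannot be told apart here. The 37 genes with a stem-loop match had a median gap of 0.99 and the 15 without a match 1.87. These classes also differed in level, with medians of the mean values of 14.2 and 9.96. In 9 of the 15 the annotated transcript ends at the stop codon, so a missing match does not show that the stem-loop is absent. Near-identical copies limit the assignment of reads: a median of 40.25% of the 50-nucleotide windows in a replication-dependent transcript also occurred in another histone gene, and 19 genes shared at least 50%, so single values of these genes are uncertain. Of the 6 genes that shared 0 windows, the gap of KO7 to the median of the other 5 libraries was 3.38 in Hist2h2bb, 2.54 in Hist1h1b, 2.41 in Hist1h1a, 0.82 in Hist4h4, 0.17 in Hist2h2be and -0.10 in Hist1h1t.

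In the comparison of libraries labelled KO with wild type, 5 variant histone genes fell and none rose. Of the 11 variant genes, 10 passed the filter (3 or more libraries at 10 or above); H1foo, the oocyte linker histone, did not, at 9.01, 5.85 and 15.0 in wild type and 10.2, 5.55 and 8.83 in the libraries labelled KO. The 5 that fell were H2afv, H1fx, H2afx, H2afj and H2afy2, against 17.0% of all genes tested that fell, and in these 5 the libraries labelled KO all lay under all wild-type libraries, as in 25.6% of all genes tested (50.3% did not overlap in either direction). The median log2 change of the 10 was -0.32, against -0.03 for all genes. Without KO7, 6 fell (background 14.2%) and the median was -0.32. Without WT4 the count was 2, when 20.1% of all genes were called, 10.8% higher and 9.24% lower. Without KO5 it was 3, when 24.1% of all genes were called, 12.3% higher and 11.8% lower. Markers of several cell types differed between the same groups: fetal Leydig markers had a median change of -0.35 with 1 of 5 lower, interstitial markers 0.31 with 2 of 4 higher, endothelial markers 0.29 with 1 of 4 higher, germ cell markers -0.22 with 1 of 5 higher, and Sertoli markers 0.00 with 0 of 5 called. Their sums were 65156 to 107076 in wild type and 48764 to 69394 in the libraries labelled KO for the fetal Leydig list, 23671 to 24363 and 27134 to 28599 for the interstitial list, and 4463 to 6145 and 6190 to 6563 for the endothelial list, with no marker at 0. Ovary markers summed to 3590 to 4165 in wild type and 2178 to 2443 in the libraries labelled KO. Neuron sums were 674 to 1039 and 454 to 561, and macrophage sums 692 to 912 and 528 to 603. Red blood cell and mesonephros sums overlapped between the groups. With the length and GC trend removed, no fetal Leydig, endothelial or germ cell marker was called. Then 1 interstitial and 1 mesonephros marker were higher, and 1 ovary and 1 macrophage marker lower. The part of these markers in the histone changes was not tested. Weighting each library by its estimated quality gave 7 variant genes lower and 0 higher, with 47.9% of all genes called, 23.5% higher and 24.4% lower.

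H2afv encodes H2A.Z.2, an H2A variant placed at gene starts. Its values were 10681, 9313 and 11086 in wild type and 6906, 6877 and 6439 in KO5, KO7 and KO8. The groups did not overlap, and the means were 10360 ± 929 and 6741 ± 262 (SD, n = 3 in each). The change was -0.62 ± 0.09 (log2(value + 1), SE; limma, adjusted p = 0.00192), and the largest adjusted p after leaving out any 1 library was 0.0136. It lies on chromosome 11 from 6327229 to 6344446 (mm9). H2afz, which encodes the close relative H2A.Z.1, read 767, 723 and 969 in wild type and 608, 734 and 563 in the libraries labelled KO. KO7 overlapped the wild-type range in H2afz, and its change of -0.36 did not pass the test (limma, adjusted p = 0.0685), while without KO7 the adjusted p was 0.0335.

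H1fx, a replication-independent linker histone gene, read 4858, 4331 and 5935 in wild type and 3136, 2512 and 3612 in KO5, KO7 and KO8. The means were 5042 ± 818 and 3087 ± 552 (SD, n = 3 in each), all 3 libraries labelled KO were lower, and the change was -0.71 ± 0.15 (SE; limma, adjusted p = 0.0054), past the threshold whichever library was left out but not with the length and GC trend removed (-0.15; adjusted p = 0.336). The other somatic linker variant, H1f0, which is known for accumulating in differentiated cells, read 14239, 11967 and 12305 in wild type and 12944, 10725 and 11386 in the libraries labelled KO. The groups overlapped in H1f0, with a change of -0.14 (limma, adjusted p = 0.349).

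H2afx read 10402, 11197 and 12727 in wild type and 9092, 6809 and 8670 in KO5, KO7 and KO8. The change was -0.49 ± 0.12 (SE; limma, adjusted p = 0.0137), and without WT4 the adjusted p was 0.0637. The deposited span of H2afx overlaps that of Cdkn2d, and strand in the counting is not given in the sources used here, so reads of the overlap may be shared. H2afj, a replication-independent H2A gene, read 1309, 1345 and 1737 in wild type and 883, 1003 and 1148 in the libraries labelled KO, a change of -0.53 ± 0.13 (SE; limma, adjusted p = 0.0129). The call for H2afj was lost without WT4 (adjusted p = 0.0574) and without KO5 (adjusted p = 0.0589).

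H2afy2 and H2afy encode the macroH2A variants, H2A proteins with a large extra domain that mark silent chromatin. H2afy2 read 2882, 2975 and 3108 in wild type and 2528, 2256 and 2608 in KO5, KO7 and KO8, a change of -0.28 ± 0.09 (SE; limma, adjusted p = 0.0307), with all 3 libraries labelled KO lower. That call was lost on leaving out WT1, WT3, WT4, KO5 or KO7 (adjusted p between 0.0501 and 0.114) and under equal totals (adjusted p = 0.14). H2afy read 7248, 7196 and 6981 in wild type and 7588, 6898 and 7142 in the libraries labelled KO, and its groups overlapped with a change of 0.01 (limma, adjusted p = 0.915).

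H3f3a and H3f3b both encode the replacement histone H3.3. H3f3b read 18304, 17279 and 18695 in wild type and 18037, 20634 and 15898 in KO5, KO7 and KO8, and the change was 0.00 ± 0.11 (SE; limma, adjusted p = 0.999). H3f3a read 1758, 1770 and 1900 in wild type and 1508, 1853 and 1466 in the libraries labelled KO. In H3f3a, KO5 and KO8 lay under all wild-type libraries and KO7 did not, and the change of -0.18 did not pass (limma, adjusted p = 0.216), while without KO7 it was -0.28 (adjusted p = 0.0321).

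**Figure D4:**
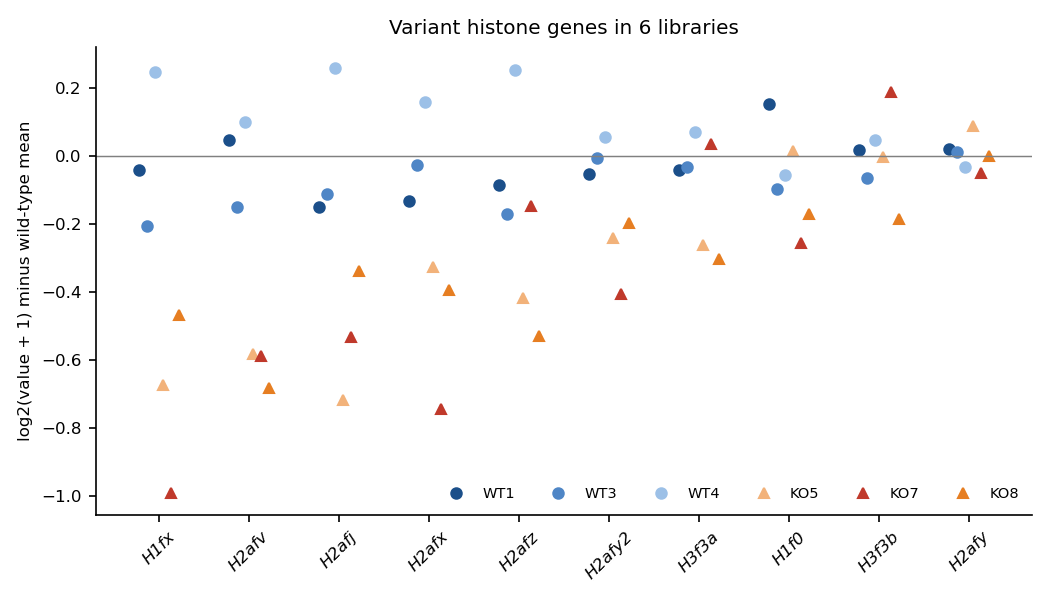
The 10 variant histone genes past the filter (horizontal axis, from the most negative change) with each library's log2(value + 1) minus the wild-type mean on the vertical axis; circles are wild type and triangles libraries labelled KO. In H1fx, H2afv, H2afj, H2afx and H2afy2 the triangles lie under all circles, and in the other 5 genes they overlap.

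Per kilobase of annotated transcript (mean value over 6 libraries divided by transcript length), H3f3b stood at 7216, H2afx at 7092, H1f0 at 5966 and H2afv at 5236, followed by H2afy at 3507 and H1fx at 3339. H2afy2 was at 1253, and H2afz, H2afj and H3f3a were at 680, 676 and 602. The replication-dependent genes with the highest values on this scale were Hist1h1c at 490, Hist1h2bc at 439 and Hist3h2a at 379, below every variant gene that passed the filter. Replication-dependent mRNAs typically lack a poly(A) tail, and near-identical copies limit the assignment of their reads. Annotated transcript length can also differ from the deposited span: 7425 nucleotides against 2977 bp in Hist1h1d, and 1138 against 312 in Hist1h4d. The same lengths entered the length classes and the trend removal below. Whether the gene classes were captured alike was not tested, so these values do not rank transcript numbers between the classes.

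Among the replication-dependent genes, 30 of 52 passed the filter. Of the 30, 3 fell and 0 rose, where 17.0% of all genes tested fell and 17.3% rose. An unadjusted p below 0.05 (limma) was reached by 5 of the 30, and by 6838 of all 15116 genes tested. The filter needs 3 libraries, so genes high in KO7 alone, such as Hist2h2bb and Hist1h2af, did not pass; with no filter, 3 of 52 fell and 0 rose, where 14.7% of all 16862 genes fell and 15.2% rose (29.9% in all). The 22 summed to 93.1, 118 and 124 in wild type, 77.4 in KO5, 499 in KO7 and 78.5 in KO8, and KO7 was highest for 20 of them. Median log2 changes of the 30 were 0.01 with all libraries (15 positive and 15 negative) and -0.21 without KO7 (all genes, -0.03 both times), when 2 fell (background 14.2%). By class, the medians with all libraries were 0.66 for 5 H1 genes, -0.26 for 6 H2A genes, -0.16 for 6 H2B genes, 0.18 for 8 H3 genes and 0.16 for 5 H4 genes, and without KO7 they were -0.01, -0.60, -0.25, -0.12 and -0.40.

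Hist1h4i, a histone H4 gene of the large chromosome 13 cluster, read 254, 184 and 211 in wild type and 111, 137 and 109 in KO5, KO7 and KO8. The means were 216 ± 35.3 and 119 ± 15.4 (SD, n = 3 in each), and the change was -0.85 ± 0.18 (SE; limma, adjusted p = 0.00607). Hist3h2ba, an H2B gene on chromosome 11 from 58762413 to 58763032 (mm9), read 88.2, 118 and 92.1 in wild type and 58.1, 47.1 and 50.8 in the libraries labelled KO, a change of -0.91 ± 0.21 (SE; limma, adjusted p = 0.00921). Both genes kept their calls whichever library was left out, though not with the length and GC trend removed, and KO7 was among the low libraries. Hist1h2bc, an H2B gene, read 623, 504 and 603 in wild type and 393, 425 and 494 in the libraries labelled KO, a change of -0.40 ± 0.13 (SE; limma, adjusted p = 0.039). The call for Hist1h2bc was lost without WT1, WT4, KO5 or KO7 (adjusted p between 0.0835 and 0.147) and under equal totals (adjusted p = 0.0986).

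The other members named by the 3 highest means of each class did not pass. Hist1h1c, the replication-dependent linker gene with the highest mean, read 750, 754 and 834 in wild type and 832, 694 and 720 in KO5, KO7 and KO8 (limma, adjusted p = 0.683), and KO7 was its lowest library. Hist3h2a, the H2A neighbour of Hist3h2ba, read 850, 943 and 867 in wild type and 695, 728 and 794 in the libraries labelled KO; these groups did not overlap and the change of -0.26 did not pass (limma, adjusted p = 0.064). Hist2h2be, an H2B gene, read 268, 226 and 179 in wild type and 246, 259 and 230 in the libraries labelled KO (adjusted p = 0.528). The H2A genes Hist1h2ae and Hist1h2ag changed by -0.36 and -0.75 (limma, adjusted p = 0.294 and 0.103), and Hist1h1d and Hist1h1e by 0.66 and 0.87 (adjusted p = 0.332 and 0.289). Without KO7 the changes of that linker pair were 0.03 and 0.05. In H3, Hist2h3c1, Hist1h3c and Hist2h3c2-ps changed by -0.02, -0.29 and -0.76 (adjusted p = 0.969, 0.486 and 0.126), and in H4, Hist1h4d and Hist1h4b by 0.20 and -0.01 (adjusted p = 0.774 and 0.989). Hist1h1t, the testis linker histone of later spermatocytes, did not pass the filter, with values between 3.28 and 7.25.

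Histone genes are short, and the change between the groups depended on transcript length across all genes. With the genes tested split by length into 5 classes of like size, 46.5% of the 2890 genes in the shortest class (up to 1793 nucleotides) fell and 19 rose, while in the longest class 1316 of 2890 rose and 49 fell. In the shortest class were 22 of the 30 replication-dependent genes, of which 3 fell, and 4 of the 10 variant genes (H2afv, H2afz, H1fx and H2afx), of which 3 fell. When the length and GC trend was removed from each library, 11.4% of 14449 genes were called, 5.68% higher and 5.77% lower. Then 2 variant genes fell, H2afv (log2 -0.46; limma, adjusted p = 0.00585) and H3f3a (log2 -0.35; adjusted p = 0.0201), and H2afy rose (log2 0.31; adjusted p = 0.0232). The other 4 that had fallen were no longer called: H1fx at -0.15, H2afj at -0.17, H2afx at 0.08 and H2afy2 at 0.01 (adjusted p = 0.336, 0.468, 0.675 and 0.973). None of the 3 replication-dependent calls remained, with Hist1h4i at -0.30, Hist3h2ba at -0.22 and Hist1h2bc at -0.17 (adjusted p = 0.229, 0.648 and 0.434), and Hist1h4h and Hist1h1c rose by 1.55 and 0.37 (adjusted p = 0.0384 and 0.038). Hist1h4h had its highest value in KO7, at 39.2 against 9.83 to 18.2 elsewhere. With the trend removed and KO7 left out (6.44% of genes called, 3.15% higher and 3.29% lower), H2afv and H3f3a were the histone genes called, both lower (adjusted p = 0.0203 and 0.0308).

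**Figure D5:**
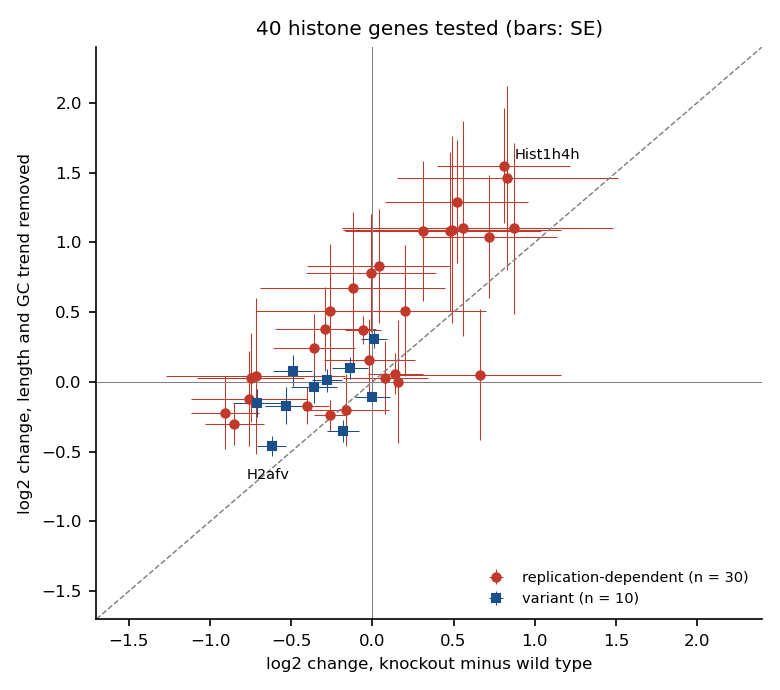
Log2 change (libraries labelled KO minus wild type) of the 40 histone genes tested, as deposited (horizontal) and with the length and GC trend removed (vertical), with SE bars and a dashed line of equality. Most genes lie above the line, and H2afv stays low on both axes, at -0.62 and -0.46.

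The genes that make and process histone mRNA changed in both directions. Of 14 listed, 4 rose and 1 fell (17.3% and 17.0% of all genes), with a median change of 0.05. Casp8ap2, known for its place in histone gene transcription bodies, read 635, 700 and 582 in wild type and 1177, 1316 and 1045 in KO5, KO7 and KO8 (log2 0.88 ± 0.12 SE; limma, adjusted p = 0.00149). Npat, the coactivator of histone gene transcription, read 649, 681 and 692, then 977, 1212 and 981 (log2 0.64; adjusted p = 0.0027). Lsm10, a protein of the U7 particle that cuts histone mRNA ends, read 863, 788 and 838, then 548, 537 and 561 (log2 -0.60; adjusted p = 0.00228). Slbp, named here after its values were seen, read 1807, 2166 and 1960 in wild type and 2979, 2789 and 2538 in the libraries labelled KO (log2 0.49; adjusted p = 0.005), and Cpsf2 also rose (log2 0.32; adjusted p = 0.0277). With the trend removed, 3 of the 14 were higher and 0 lower (5.68% and 5.77% of all genes). Slbp (0.59, limma, adjusted p = 0.00788) and Casp8ap2 (0.31, adjusted p = 0.0351) were still higher, and Upf1 (0.28, adjusted p = 0.0238) was called only then. Npat (0.09, adjusted p = 0.556) and Lsm10 (-0.03, adjusted p = 0.865) were not called.

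Histone chaperones and exchange factors, which deliver histones to DNA and swap variants, had 4 of 25 higher and 3 lower (17.3% and 17.0% of all genes), with a median change of -0.04. Supt16h, a subunit of the FACT complex, read 1357, 1768 and 1276 in wild type and 3337, 3222 and 3545 in KO5, KO7 and KO8 (log2 1.21 ± 0.12 SE; limma, adjusted p = 0.000749), and was still higher with the trend removed (0.88; adjusted p = 0.00343). Atrx, which acts in deposition of H3.3, read 1832, 2111 and 1742, then 3765, 4712 and 3465 (log2 1.06; adjusted p = 0.00107; with the trend removed 0.40, adjusted p = 0.0107). Ubn2, of the HIRA chaperone complex, rose by 0.62 (adjusted p = 0.00182) and stood at 0.02 with the trend removed (adjusted p = 0.896). All 3 libraries labelled KO were above wild type in Supt16h and Atrx.

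S phase genes had 3 of 29 higher and 6 lower (17.3% and 17.0% of all genes), with a median of -0.07. Gins2, of the replicative helicase, read 1738, 1577 and 1547 in wild type and 1166, 1070 and 1043 in KO5, KO7 and KO8 (log2 -0.57 ± 0.09 SE; limma, adjusted p = 0.00228), and the change was the same size with the trend removed (-0.57; adjusted p = 0.00463). Tk1, thymidine kinase, fell by 0.62 on the log2 scale (adjusted p = 0.00239; -0.15 with the trend removed, adjusted p = 0.24). Pola1, the catalytic subunit of polymerase alpha, rose by 0.53 (adjusted p = 0.00261; 0.04 with the trend removed, adjusted p = 0.798).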

How the data were processed

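The table holds 1 value per gene and library for 6 libraries. The authors deposited upper-quartile normalised pseudo-counts, a signal that is not reads, and the submitters' processing notes name CASAVA 1.8.2, edgeR 2.6.2 and mm9 without roles. No source used here gives the read counting, its strand or the depth, so no count model was run. Members and gene lists were chosen with earlier results of these data known. Changes were fitted with limma 3.58.1 in R 4.3.3 (eBayes with trend, two-sided) on log2(value + 1), for genes at 10 or above in 3 or more libraries, with Benjamini-Hochberg adjustment over 15116 genes and a threshold of 0.05. Low values move less on this scale. The labels speak of 6 different littermates, and how gonads were pooled is not stated there, so p-values measure the spread between these libraries. The 95.6% of tested genes with a GENCODE transcript entered the removal of the length and GC trend (natural splines, 4 degrees of freedom). Genes were named by rule: Ptgds, each variant gene, per replication-dependent class up to 6 called genes and the 3 of highest mean, Hist1h1t, and up to 3 called genes per list. The fit was tested on simulated data. Alternatives were another pseudocount, filter, scaling, prior and library weights, and each library left out.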

Additional observations from a re-analysis of the deposited data

How the results depend on the processing

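No paired analysis was possible because the groups share no replicate number. Over 35 named genes and 19 alternatives, 586 of 658 pairs kept their side of the threshold, 52 lost it, 14 gained it and 6 reversed; in 48 of the 586, past the threshold in neither fit, the sign differed. Leaving out 1 library, calls over all genes ran from 3032 (without WT4) to 5041, variant genes lower from 2 to 6, replication-dependent genes lower from 2 to 3, higher 0 to 0 in both classes, and medians from -0.21 to 0.17 (replication-dependent) and -0.37 to -0.24 (variant). With the length and GC trend removed, 1654 genes were called, 1782 without WT1 too and 930 without KO7 too (added after seeing the data); replication-dependent genes lower were 0 in all 3, with 2 higher when all libraries were kept, and variant genes lower were 2 in all 3, with 1 higher in the fit of all libraries and in that without WT1. The variant median was then -0.08, -0.13 and -0.09. The replication-dependent median was 0.37 with all libraries and 0.11 without KO7. Quantile normalisation and a prior without mean dependence each left 3 variant genes lower, library weights gave 5 replication-dependent genes lower, a filter at 50 gave a replication-dependent median of -0.31, and equal totals gave a variant median of -0.22. Reversed values were H2afy2 at 0.01 and 0.03 and H2afx at 0.08 and 0.15 (trend removed, with and without KO7), Hist1h1c at 0.37 (trend removed) and Ubn2 at -0.04 (trend removed, without WT1); the cause was not tested. Depth is unknown, so values near 1 carry no counting interval.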
